A study of Mus musculus with 20 samples.

Results

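The genes described here encode 10 proteins of the neuronal cytoskeleton that are known, or belong to families known, to be phosphorylated by c-Jun N-terminal kinases (JNKs). They are the stathmins Stmn1 and Stmn2, doublecortin (Dcx), the microtubule-associated proteins Map1a, Map1b and Map2, tau (Mapt), and the heavy, medium and light neurofilament subunits Nefh, Nefm and Nefl. They were chosen by name, and all 10 were among the 23845 genes of the tables and among the 16063 that passed the filter on low counts. RNA was sequenced from mouse brain in 20 libraries of 7 genotypes, all labelled strain C57/Bl6J: J17a, J17b, J1 lf/lf, J27a, J27b, J2 lf/lf and Wild type, with 2 libraries of J17b and 3 of each other group. The mice were on a normal diet. The series describes knockouts of single isoforms, but its labels give neither the alleles behind the codes, nor which exon form a line still makes, nor the age or sex of the mice, so the groups go by their label names. Separate animals are not stated for the replicates, and the p-values can speak only for the spread among these libraries, which may be technical.

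The genes Mapk8, Mapk9 and Mapk10 encode JNK1, JNK2 and JNK3, and brain is the tissue in which JNK activity is known to stay high without stress. JNKs phosphorylate serine or threonine followed by proline. Phosphorylated stathmins bind free tubulin less, phosphorylated microtubule-associated proteins and tau have altered affinity for microtubules, and phosphorylated tails of the larger neurofilament subunits project from the axonal filament. These events act on the proteins, whereas the libraries measure the mRNAs.

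The target motif is written very unevenly into the 3 neurofilament genes. In the longest coding transcript of each gene, the coding sequence of Nefh held 60 serine-proline or threonine-proline codon pairs in 1090 codons, 51 of them serine-proline pairs after a lysine codon. Nefm held 10 in 848 codons and Nefl 1 in 543. Mapt held 27 in 749 codons, Map1b 77 in 2464, Map1a 73 in 3014, Map2 42 in 1828, Dcx 9 in 366, Stmn1 2 in 149 and Stmn2 2 in 179. Per 100 codons this is 5.50 pairs for Nefh, 3.60 for Mapt and 0.184 for Nefl, beside a median of 0.767 over 14673 tested genes. The following stretches of 30 codons hold the highest number of pairs that 30 codons reach, 5, in Nefh, the neurofilament gene with most of them, and in Mapt, whose mRNA varied least of the 10. Each is 1 of several that tie, 204 windows in Nefh and 17 in Mapt; the codon pairs are in capitals (GENCODE transcripts, GRCm38).
Nefh codons 521 to 550 (chr11:4940968-4941057, minus strand): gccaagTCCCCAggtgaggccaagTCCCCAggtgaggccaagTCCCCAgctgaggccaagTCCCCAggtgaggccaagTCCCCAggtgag
Mapt codons 461 to 490 (chr11:104306659-104306748, plus strand): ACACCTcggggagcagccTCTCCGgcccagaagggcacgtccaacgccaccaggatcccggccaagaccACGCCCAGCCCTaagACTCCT
The Nefh stretch repeats 1 phosphorylation site 5 times and each time after a lysine codon, while the 5 pairs of the Mapt stretch stand in differing surroundings.

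In mm10 the genes lie at these positions: Stmn1 (chr4:134468320-134473843, plus strand), Stmn2 (chr3:8509360-8561606, plus strand), Dcx (chrX:143855842-143933311, minus strand), Map1a (chr2:121289600-121310832, plus strand), Map1b (chr13:99421446-99516540, minus strand), Map2 (chr1:66175273-66442583, plus strand), Mapt (chr11:104231390-104332090, plus strand), Nefh (chr11:4938754-4948064, minus strand), Nefm (chr14:68082590-68124846, minus strand) and Nefl (chr14:68083863-68089095, plus strand). Nefm and Nefl overlap on opposite strands in the GENCODE annotation and share 1108 exon bases, 32.8% of those of Nefl and 19.2% of those of Nefm. The sources used here do not say whether counting used the strand, nor which annotation it used. The counts of Nefl were whole in every library, so they show no read divided between Nefl and another gene. Whether each read from the shared bases was counted for the gene it came from is not known. Estimated counts were not whole in 20 of 20 libraries for Nefm, 19 for Nefh and 18 for Map1a, as RSEM gives where reads also match other transcripts, and were whole in every library for the other 7 genes.

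Library totals ran from 21395041 to 33828755 estimated counts, and the neuronal markers Snap25, Syt1, Rbfox3, Syn1 and Eno2 together stood at 5177 to 6192 CPM (counts scaled to library size) in every library. Mapk8 stood at 74.6 and 79.2 CPM in J17b, against 102 to 140.4 CPM in the other 18 libraries. Mapk9 stood at 177, 171 and 58.1 CPM in J2 lf/lf, against 274 to 360.4 CPM in the other 17. Mapk10 ran from 341 to 422 CPM. One library stood apart in base composition. The GC contrast of a library, the median log2 deviation of the 3669 tested genes with the most GC minus that of the 3669 with the least, was -0.57 in Wild type replicate 3, -0.24 in J17a replicate 2, -0.14 in J17b replicate 2, -0.13 in J1 lf/lf replicate 1 and between -0.04 and 0.16 in the other 16. The single-gene differences from Wild type that are named, and the intervals, are therefore given with and without replicate 3.

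The 10 mRNAs covered a wide range of levels. On the TPM scale, which corrects for transcript length and library size, Stmn1 was highest, at 1010.2 to 1408 TPM over the 20 libraries. Nefl (583 to 812 TPM) and Stmn2 (476 to 737 TPM) followed with overlapping ranges. Map1a (349 to 450.2 TPM), Map1b (293 to 450.4 TPM), Map2 (289.7 to 416 TPM) and Nefm (254 to 441 TPM) formed a block whose ranges overlapped one another. Mapt lay at 231 to 268 TPM, overlapping the lower end of Nefm, and Nefh at 117 to 204 TPM, below every Mapt value. Dcx, a protein of migrating and newly formed neurons, had 3.63 to 8.04 TPM, far below the other 9. In Wild type the means were 1236 ± 84.5 TPM for Stmn1, 614 ± 26.7 TPM for Nefl, 150.5 ± 28.0 TPM for Nefh and 5.18 ± 1.03 TPM for Dcx (SD, n = 3).

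No gene of the 10 passed the threshold (adjusted p of 0.05 by Benjamini-Hochberg over all tested genes, edgeR's quasi-likelihood test) in any comparison. Against Wild type, 0 of 10 were called in each of the 6 lines, beside a background of 0% of all tested genes called for J17a, 0.0249% for J17b, 0.0125% for J1 lf/lf, 0% for J27a, 0% for J27b and 0.00623% for J2 lf/lf. Between the lines, 0 of 10 were likewise called for J17a against J17b (0% of all genes), J27a against J27b (0%), J17a against J1 lf/lf (0.00623%), J17b against J1 lf/lf (0.0311%), J27a against J2 lf/lf (0.00623%) and J27b against J2 lf/lf (0.00623%). The test of any difference among the 7 groups called 0 of 10, beside 0.0872% of all genes, and 2 of 10 had an unadjusted p under 0.05, beside 6.71% of all genes. DESeq2 and limma on TPM also called 0 of 10 in each. In the 5 comparisons with no gene called, 705 to 1114 of all tested genes had an unadjusted p under 0.05, DESeq2 called 1 to 12 genes and limma 0 to 7. At an unadjusted p under 0.05, 15 of the 120 pairs of a gene with a comparison of 2 groups stood out (12.5%), beside 5.71% over all tested genes. Comparisons share libraries and the genes vary together, so these pairs are not separate results.

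The intervals show what sizes of change these libraries leave possible. Over the 6 lines against Wild type, the 95% intervals of Mapt lay within -0.20 to 0.18 on the log2 scale, those of Map1a within -0.20 to 0.29 and those of Map2 within -0.32 to 0.22. They reached from -0.40 to 0.10 for Stmn2, from -0.37 to 0.24 for Stmn1 and from -0.41 to 0.32 for Map1b. They were wider for Nefl (-0.19 to 0.44), Nefh (-0.38 to 0.56), Nefm (-0.28 to 0.72) and Dcx (-0.45 to 0.77). Apart from Dcx, the upper bounds thus ran to at most 1.65-fold, for Nefm, and the lower bounds to 0.751-fold, for Map1b. The same intervals shifted without Wild type replicate 3. They then lay at -0.26 to 0.07 for Mapt, -0.28 to 0.11 for Map1a, -0.20 to 0.31 for Map2, -0.21 to 0.19 for Stmn2 and -0.43 to 0.15 for Stmn1. They were -0.29 to 0.42 for Map1b, -0.24 to 0.41 for Nefl, -0.33 to 0.72 for Nefh, -0.44 to 0.64 for Nefm and -0.41 to 0.97 for Dcx. That fit called 0 of 10 in each line as well. For J17b against Wild type it called 54 of all tested genes, against 4 in the fit of all libraries. The share of all tested genes at an unadjusted p under 0.05 was not taken for it. With no such share beside them, the values below do not set these genes apart from others. Without Wild type replicate 3, some of the 10 genes had an unadjusted p under 0.05 that the fit of all libraries did not give. These were Stmn1 in J17b (log2 fold change -0.25, unadjusted p = 0.0112, adjusted p = 0.231), Map1b in J17b (log2 fold change 0.21, unadjusted p = 0.0404, adjusted p = 0.352), Mapt in J17a (log2 fold change -0.12, unadjusted p = 0.0457, adjusted p = 0.713) and J17b (log2 fold change -0.13, unadjusted p = 0.0440, adjusted p = 0.359), Nefh in J17a (log2 fold change 0.36, unadjusted p = 0.0362, adjusted p = 0.713) and Dcx in J1 lf/lf (log2 fold change 0.49, unadjusted p = 0.0498, adjusted p = 0.508).

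**Figure D1:**
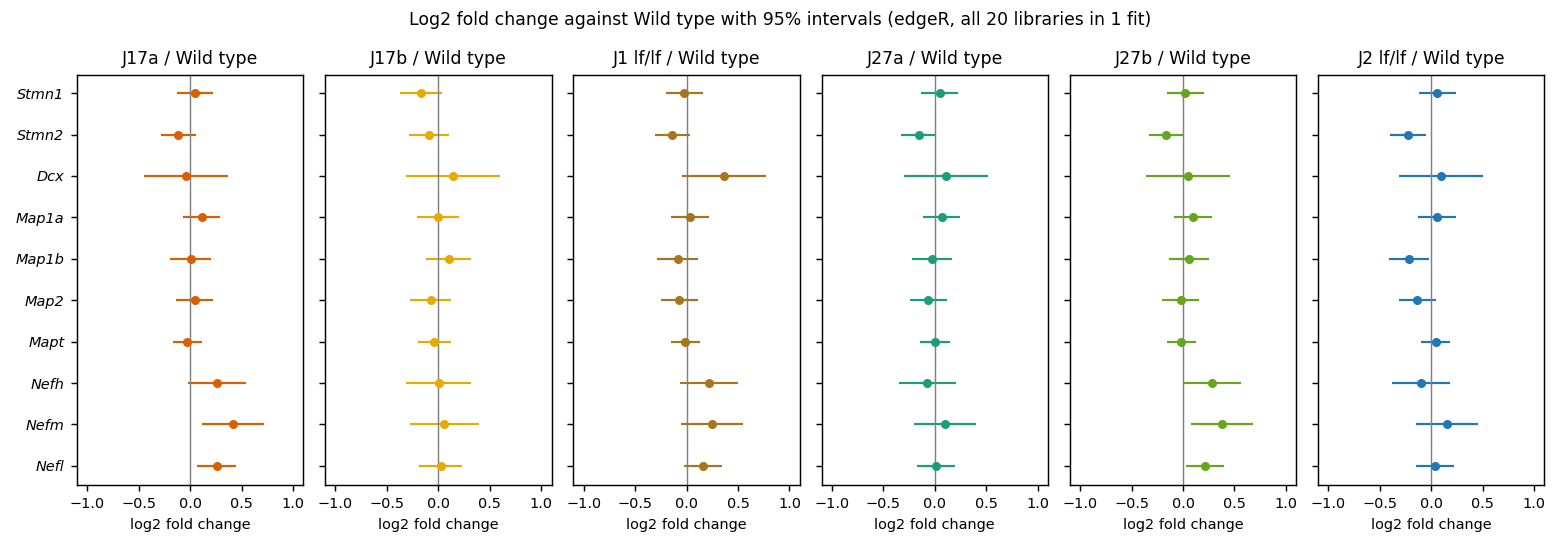
Log2 fold change (x axis) of the 10 genes (rows) in each of the 6 lines over Wild type, with points for the edgeR estimate and bars for the 95% interval, from the fit with all 3 Wild type libraries. Estimates of Mapt lie close to 0 in all 6 panels, and those of Nefm, Nefl and Nefh lie furthest to the right in J17a and J27b.

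The stathmins sequester tubulin dimers and promote the disassembly of microtubules. Stmn1, expressed in most dividing and neural cells, had, in CPM, 417, 433 and 416 in J17a, 401 and 325 in J17b, 425, 396 and 384 in J1 lf/lf, 385, 421 and 461 in J27a, 422, 401 and 422 in J27b, 396, 413 and 467 in J2 lf/lf, and 441, 421 and 363 in Wild type. Every line overlapped with Wild type, and the lowest library was J17b replicate 2. Both J17b values lay below the 3 of J17a, a separation in either direction that 19.8% of all tested genes showed in this comparison (log2 fold change 0.22 ± 0.10, SE; 95% interval 0.02 to 0.42; unadjusted p = 0.0359, adjusted p = 0.818). Without single libraries this log2 fold change ran from 0.08 to 0.38.

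Stmn2, the neuron-specific stathmin of growing and regenerating axons, had, in CPM, 392, 383 and 360.5 in J17a, 395 and 375 in J17b, 402, 366 and 352 in J1 lf/lf, 382, 359 and 362 in J27a, 367, 357 and 377 in J27b, 358, 353 and 340.2 in J2 lf/lf, and 376, 367 and 488 in Wild type. The highest of the 20 values was Wild type replicate 3, and the other 19 lay between 340.2 and 402 CPM. All 3 J2 lf/lf libraries lay below all 3 of Wild type, in a comparison where 10.4% of all tested genes did not overlap (log2 fold change -0.23 ± 0.08, SE; 95% interval -0.40 to -0.05; unadjusted p = 0.0122, adjusted p = 0.618). Without Wild type replicate 3 the log2 fold change was -0.08 (unadjusted p = 0.186, adjusted p = 0.999). Group means were 351 ± 9.36 CPM in J2 lf/lf and 410.4 ± 67.3 CPM in Wild type (SD, n = 3 each).

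Dcx, which bundles microtubules in migrating neurons, had, in CPM, 17.4, 21.7 and 17.3 in J17a, 18.9 and 23.9 in J17b, 18.3, 30.4 and 26.1 in J1 lf/lf, 13.9, 22.7 and 26.2 in J27a, 21.8, 19.4 and 18.9 in J27b, 19.8, 21.8 and 20.4 in J2 lf/lf, and 18.9, 16.8 and 22.5 in Wild type. It was the most variable of the 10 between libraries, with a coefficient of variation of 18.3%, of which counting error alone gives 4.22%. The highest library was J1 lf/lf replicate 2, followed by J27a replicate 3 and J1 lf/lf replicate 3, and every line overlapped with Wild type. J1 lf/lf averaged 24.9 ± 6.15 CPM and Wild type 19.4 ± 2.87 CPM (SD, n = 3 each). J17a and J1 lf/lf overlapped as well (log2 fold change -0.41 ± 0.19, SE; 95% interval -0.82 to -0.0031; unadjusted p = 0.0484, adjusted p = 0.757). The levels of 2 marker lists were high in J1 lf/lf replicates 2 and 3 as well, but not in J27a replicate 3. Over the 20 libraries, r of Dcx with the mean log2 level was 0.65 for the olfactory bulb list and 0.49 for the immature neuron list. The 4 olfactory bulb markers summed to 91.5 and 51.5 CPM in J1 lf/lf replicates 2 and 3, against 10.3 to 23.0 CPM in the other 18 libraries, and the 8 markers of immature neurons to 120.4 and 97.6 CPM in these 2, against 64.2 to 85.7 CPM. None of these markers was at 0 in every library, and their part in the Dcx values was not tested. In bulk tissue, fewer cells of a type and less RNA per cell cannot be told apart.

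**Figure D2:**
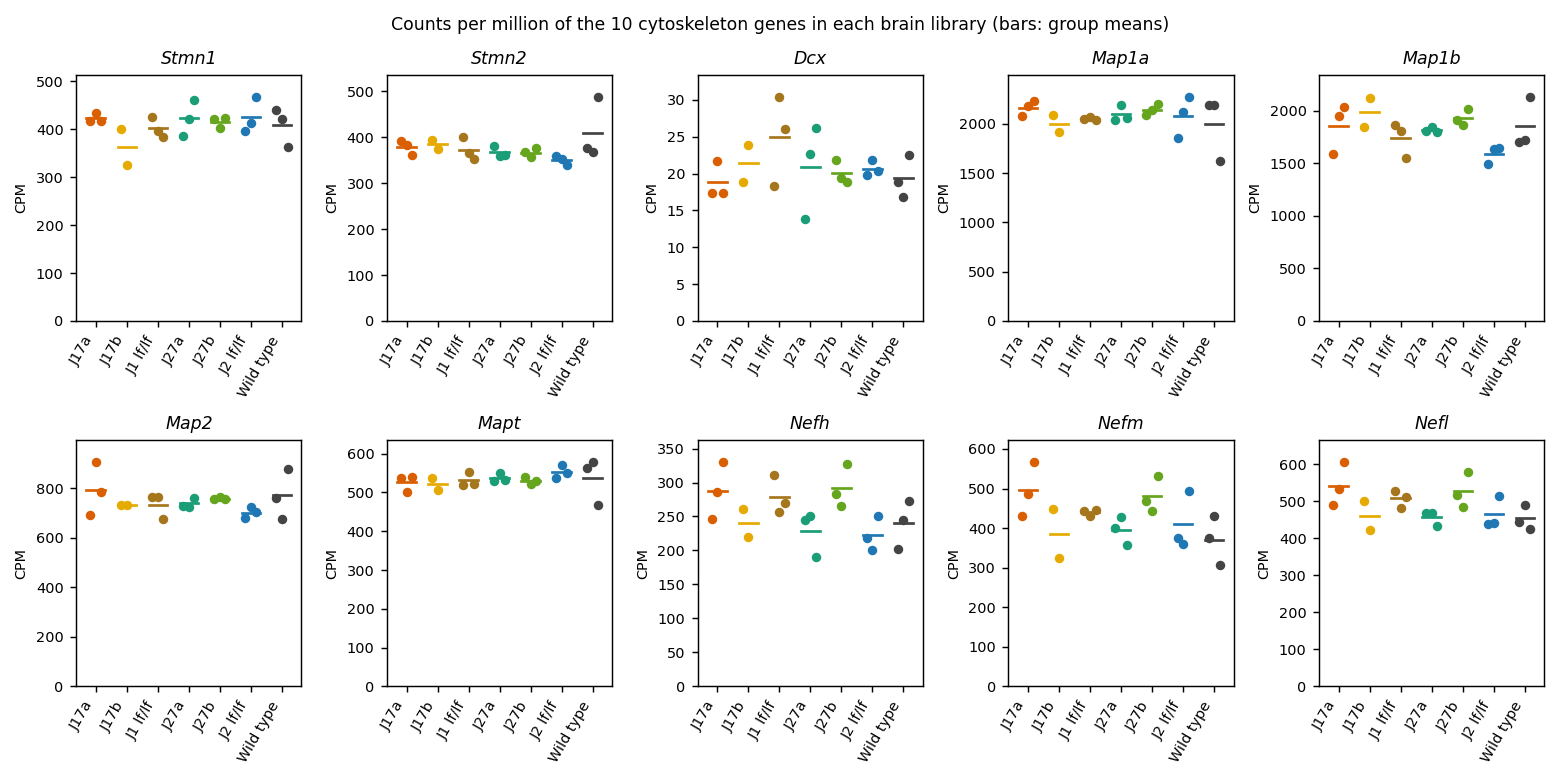
CPM (y axis, from 0) of each gene in each library, by group (x axis), with points for libraries and bars for group means. The 3 Wild type values of Stmn2, Map1a, Map1b, Map2 and Mapt are spread by replicate 3, and J17a and J27b have the highest means of Nefh, Nefm and Nefl.

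Map1a and Map1b are large related proteins that are each cleaved into a heavy and a light chain; Map1b is known as the form of growing axons and Map1a as the form of mature neurons. Map1a had, in CPM, 2082, 2176 and 2229 in J17a, 2085 and 1914 in J17b, 2045, 2068 and 2033 in J1 lf/lf, 2042, 2194 and 2058 in J27a, 2085, 2144 and 2197 in J27b, 1856, 2116 and 2272 in J2 lf/lf, and 2190.4, 2192 and 1625 in Wild type. Wild type replicate 3 was the lowest of the 20, every line overlapped with Wild type, and no comparison of Map1a had an unadjusted p under 0.05. Map1b had, in CPM, 1587, 1953 and 2035 in J17a, 1845 and 2126 in J17b, 1866, 1812 and 1552 in J1 lf/lf, 1811, 1846 and 1799.9 in J27a, 1914, 1862 and 2022 in J27b, 1494, 1641 and 1645 in J2 lf/lf, and 1705, 1721 and 2133 in Wild type, with Wild type replicate 3 the highest of the 20.

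Map1b was lowest in J2 lf/lf, at 1593 ± 86.1 CPM, against 1853 ± 243 CPM in Wild type (SD, n = 3 each), and all 3 J2 lf/lf libraries lay below all 3 of Wild type, beside 10.4% of all tested genes without overlap (log2 fold change -0.22 ± 0.09, SE; 95% interval -0.41 to -0.02; unadjusted p = 0.0308, adjusted p = 0.624). Without Wild type replicate 3 the log2 fold change was -0.10 (unadjusted p = 0.253, adjusted p = 0.999). Map1b also lay above J2 lf/lf in all 3 libraries of J27b, whose mean was 1933 ± 81.7 CPM, beside 16.4% of all tested genes without overlap (log2 fold change 0.28 ± 0.09, SE; 95% interval 0.08 to 0.47; unadjusted p = 0.00742, adjusted p = 0.850). This log2 fold change ran from 0.23 to 0.30 when single libraries were left out. When only the libraries of J27b and J2 lf/lf entered the fit, Map1b passed the threshold (log2 fold change 0.28, adjusted p = 0.0101). That fit takes the spread from 6 libraries in place of 20, and it called 81 genes in all, against 1 in the fit of 20.

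Map2, the microtubule-associated protein of dendrites, had, in CPM, 693, 904 and 784 in J17a, 729.7 and 734 in J17b, 762, 762 and 675 in J1 lf/lf, 729, 725 and 761 in J27a, 754, 762 and 755 in J27b, 678, 722 and 702 in J2 lf/lf, and 759.6, 675 and 876 in Wild type. Its highest values were in J17a replicate 2 and Wild type replicate 3, the 2 libraries with the lowest GC contrast. Mapt, the tau of axons, had, in CPM, 538, 501 and 541 in J17a, 538 and 506 in J17b, 519, 554 and 522 in J1 lf/lf, 529, 549.7 and 532 in J27a, 540.4, 521 and 529.9 in J27b, 537, 571 and 549 in J2 lf/lf, and 564, 578 and 466 in Wild type. It was the steadiest of the 10, with a coefficient of variation of 4.74% over the 20 libraries, beside a median of 8.20% for the 8600 tested genes with a mean log2 CPM of at least 4. Its lowest and its highest value were both Wild type, in replicates 3 and 2. With all libraries in the fit, neither Map2 nor Mapt had an unadjusted p under 0.05 in any comparison.

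The neurofilament subunits assemble into the filaments that set the calibre of large axons. Nefl, the subunit on which the filament is built, had, in CPM, 489, 533 and 605 in J17a, 499.5 and 422 in J17b, 528, 483 and 512 in J1 lf/lf, 468, 467 and 434 in J27a, 516, 485 and 580.2 in J27b, 438, 442 and 515 in J2 lf/lf, and 445, 491 and 425 in Wild type. Nefm, the medium subunit, had, in CPM, 432, 487 and 567 in J17a, 448 and 324 in J17b, 444, 430.4 and 446 in J1 lf/lf, 401, 429 and 358 in J27a, 469.7, 443 and 532 in J27b, 376, 361 and 495 in J2 lf/lf, and 374, 431 and 306 in Wild type. Nefh, the heavy subunit of mature thick axons, had, in CPM, 246, 287 and 329.9 in J17a, 261 and 220.1 in J17b, 310.4, 257 and 270.1 in J1 lf/lf, 244, 250.1 and 190.1 in J27a, 282, 266 and 328 in J27b, 219, 200.2 and 251 in J2 lf/lf, and 202, 245 and 273 in Wild type. The highest library of all 3 genes was J17a replicate 3, and J27b replicate 3 was the second highest of each.

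In J17a, Nefm averaged 495 ± 67.7 CPM, against 370.3 ± 62.5 CPM in Wild type (SD, n = 3 each), and its 3 libraries lay above the 3 of Wild type, beside 6.53% of all tested genes without overlap (log2 fold change 0.42 ± 0.14, SE; 95% interval 0.12 to 0.72; unadjusted p = 0.00931, adjusted p = 0.993). Nefl averaged 542 ± 59.0 CPM in J17a and 454 ± 33.5 CPM in Wild type, with 1 value of J17a just below the highest of Wild type (log2 fold change 0.26 ± 0.09, SE; 95% interval 0.07 to 0.44; unadjusted p = 0.00889, adjusted p = 0.993). Without Wild type replicate 3 the log2 fold change was 0.30 for Nefm (unadjusted p = 0.0840, adjusted p = 0.732) and 0.21 for Nefl (unadjusted p = 0.0353, adjusted p = 0.713).

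J27b gave values of the same kind. Nefm averaged 481 ± 45.5 CPM there, and all 3 libraries lay above the 3 of Wild type, beside 11.9% of all tested genes without overlap (log2 fold change 0.38 ± 0.14, SE; 95% interval 0.08 to 0.68; unadjusted p = 0.0170, adjusted p = 0.713). Nefl averaged 527 ± 48.7 CPM (log2 fold change 0.22 ± 0.09, SE; 95% interval 0.03 to 0.40; unadjusted p = 0.0245, adjusted p = 0.715) and Nefh 292 ± 32.0 CPM, against 239.8 ± 35.6 CPM in Wild type (log2 fold change 0.28 ± 0.13, SE; 95% interval 0.0018 to 0.56; unadjusted p = 0.0487, adjusted p = 0.717), with overlapping libraries for both. Without Wild type replicate 3 the log2 fold changes were 0.26 for Nefm, 0.17 for Nefl and 0.39 for Nefh, with adjusted p of 0.769, 0.727 and 0.640. J17a and J27b are set against the same 3 Wild type libraries. Against J2 lf/lf, all 3 J27b libraries of Nefh lay above all 3 of J2 lf/lf, which averaged 223 ± 25.9 CPM, beside 16.4% of all tested genes without overlap (log2 fold change 0.39 ± 0.13, SE; 95% interval 0.10 to 0.67; unadjusted p = 0.0100, adjusted p = 0.914).

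Between the lines whose codes end in 7a and 7b, the neurofilament estimates pointed in opposite directions for the J17 and the J27 codes. In J17a against J17b, the estimate was above 0 for Nefm (log2 fold change 0.36 ± 0.16, SE; 95% interval 0.02 to 0.70; unadjusted p = 0.0396, adjusted p = 0.819). It was above 0 for Nefl as well (log2 fold change 0.24 ± 0.10, SE; 95% interval 0.03 to 0.44; unadjusted p = 0.0292, adjusted p = 0.818), with libraries of both lines overlapping for each gene. In J27a against J27b, all 3 J27a libraries lay below all 3 of J27b for Nefh (log2 fold change -0.35 ± 0.13, SE; 95% interval -0.64 to -0.07; unadjusted p = 0.0164, adjusted p = 0.798). The same held for Nefl (log2 fold change -0.21 ± 0.09, SE; 95% interval -0.39 to -0.02; unadjusted p = 0.0303, adjusted p = 0.837). In this comparison the libraries did not overlap for 4 of the 10 genes, beside 17.3% of all tested genes. The difference between these 2 differences, a comparison added after the data had been seen, called 0 of 10 genes, beside 0.00623% of all genes. It was 0.44 ± 0.13 (SE) on the log2 scale for Nefl (unadjusted p = 0.00343, adjusted p = 0.495), 0.61 ± 0.20 for Nefh (unadjusted p = 0.00714, adjusted p = 0.558) and 0.64 ± 0.22 for Nefm (unadjusted p = 0.00838, adjusted p = 0.564). With single libraries left out it ran from 0.32 to 0.57 for Nefl, 0.49 to 0.74 for Nefh and 0.43 to 0.90 for Nefm. For the other 7 genes the unadjusted p ran from 0.150 to 0.965. In the test over all 7 groups, Nefl (unadjusted p = 0.0325, adjusted p = 0.667) and Nefh (unadjusted p = 0.0338, adjusted p = 0.675) came lowest of the 10.

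The 3 neurofilament mRNAs varied together from library to library. Over the 20 libraries, Pearson's r of log2 CPM was 0.95 between Nefm and Nefl, 0.84 between Nefh and Nefl and 0.71 between Nefh and Nefm. After subtracting group means it was 0.93, 0.73 and 0.57 for these pairs, so the relation is present among libraries of the same genotype. Without Wild type replicate 3 it was 0.96, 0.93 and 0.88. Nefm and Nefl share exon bases on opposite strands, as given above, whereas Nefh lies on another chromosome. These values describe 20 libraries that differ in depth and base composition, and carry no p.

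**Figure D3:**
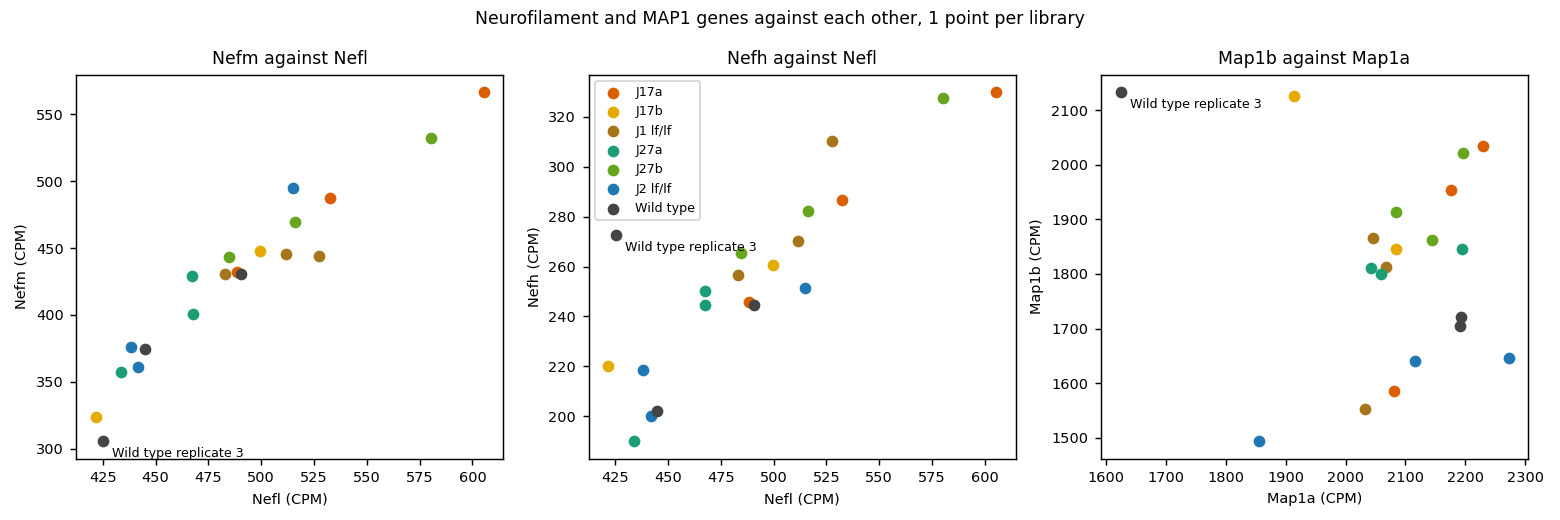
CPM of Nefm against Nefl, Nefh against Nefl and Map1b against Map1a, with 1 point for each of the 20 libraries, coloured by group. Nefm and Nefh climb with Nefl across libraries of all groups, while Map1b and Map1a show no common slope and Wild type replicate 3 stands at the low end of Map1a and the high end of Map1b.

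Of the lists of markers of other brain parts and cells that were examined, some moved with the neurofilament genes, and the cerebellum list ran against Nefm and Nefl. The lists below are given for that reason, and the other lists are left out. The 9 hindbrain markers, mostly Hox genes, summed to 15.8 to 76.9 CPM in J17a, 20.4 to 53.5 in J17b, 18.1 to 75.1 in J1 lf/lf, 19.2 to 23.5 in J27a, 28.5 to 54.5 in J27b, 15.4 to 27.5 in J2 lf/lf and 11.4 to 22.6 in Wild type. The highest sum was that of J17a replicate 3, the library with the most Nefh, Nefm and Nefl, and all 3 J27b libraries lay above all 3 of J27a and of Wild type. The 8 markers of large fast-conducting neurons summed to 2282 to 2398 CPM in J17a, 2309 to 2403 in J17b, 2212 to 2411 in J1 lf/lf, 2012 to 2383 in J27a, 2308 to 2478 in J27b, 2079 to 2287 in J2 lf/lf and 2091 to 2231 in Wild type. By this sum J17a, J17b and J27b lay wholly above Wild type. That includes J17b, where no neurofilament gene had an unadjusted p under 0.05 against Wild type. On the mean log2 level of the list, centred over the 20 libraries, these lines overlapped with Wild type. The ranges were -0.03 to 0.16 in J17a, -0.01 to 0.08 in J17b, 0.01 to 0.20 in J27b and -0.16 to 0.03 in Wild type. The 10 oligodendrocyte markers summed to 5835 to 8169 CPM in J17a, 6500.4 to 6995 in J17b, 6599 to 8169 in J1 lf/lf, 5434 to 6658 in J27a, 6999 to 7363 in J27b, 7015 to 7724 in J2 lf/lf and 5701 to 7022 in Wild type. By this sum every line overlapped with Wild type. On the mean log2 level, J1 lf/lf (0.02 to 0.20), J2 lf/lf (0.03 to 0.15) and J27b (0.07 to 0.09) lay wholly above Wild type (-0.23 to 0.01). In J2 lf/lf, mean Nefh CPM was 93.1% of that in Wild type. J27a (-0.34 to -0.16) lay wholly below J27b on both measures. In J27a against J27b, 7 of the 10 markers had an unadjusted p under 0.05 by edgeR, beside 5.79% of all tested genes, and 0 were called. None of these markers was at 0 in every library. Over 20 libraries, r of log2 CPM with the mean log2 level of a list was, for Nefh, 0.82 with the large-neuron list, 0.63 with the hindbrain list and 0.60 with the oligodendrocyte list. For Nefm these were 0.49, 0.59 and 0.39, and for Nefl 0.59, 0.64 and 0.48. Lists of other cytoskeleton genes reached similar r with Nefm: 0.56 for axonal transport motors, 0.53 for tubulins and 0.53 for other microtubule-associated proteins. In J17a against J17b, 3 of the 8 large-neuron markers had a log2 fold change above 0 (median -0.07), beside 0.36 for Nefm and 0.24 for Nefl. With the cerebellum list of 8 markers, r was -0.22 for Nefh, -0.55 for Nefm and -0.50 for Nefl. In J17a against J17b minus J27a against J27b, the median log2 value of the cerebellum markers was -1.08. By edgeR, 6 of these 8 had an unadjusted p under 0.05, beside 6.7% of all tested genes, and 0 were called. The part of these lists in the neurofilament values was not tested.

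The microtubule genes formed other groupings. Map1b and Map2 varied together (r = 0.71 over 20 libraries), as did Map1a and Mapt (0.68), while Stmn2 ran against Map1a (-0.69) and Mapt (-0.68). Without Wild type replicate 3, r was 0.64 between Map1b and Map2, 0.36 between Map1a and Mapt, -0.18 between Stmn2 and Map1a and -0.33 between Stmn2 and Mapt, so the last 3 rest largely on that library. Stmn1 followed the mean log2 level of the neuronal markers (r = 0.85) and of the forebrain glutamatergic markers (0.82).

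**Figure D4:**
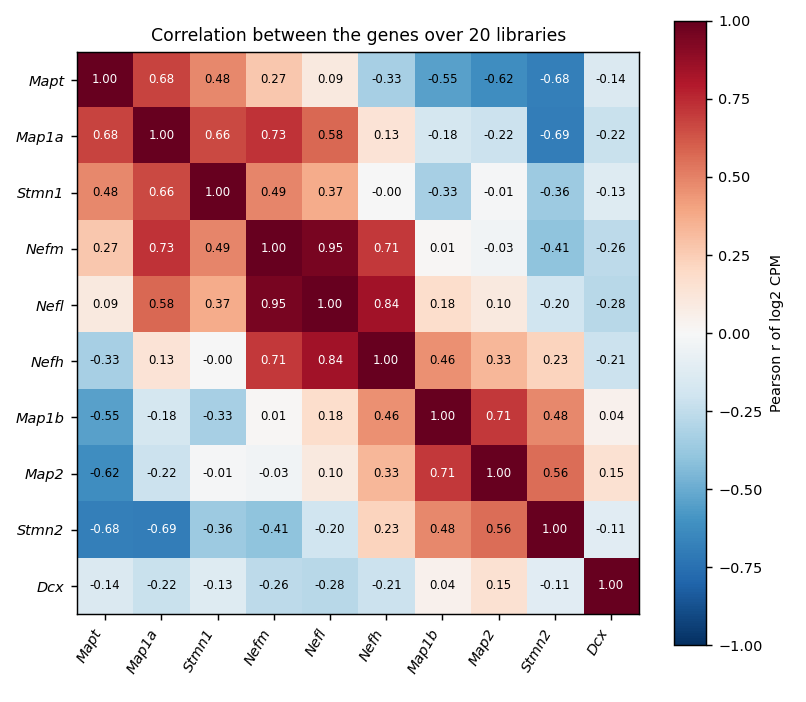
Pearson's r of log2 CPM between each pair of the 10 genes over 20 libraries, with the value printed in each cell and colour running from -1 to 1. The 3 neurofilament genes form a block of 0.71 to 0.95, and Stmn2, Map2 and Map1b run against Mapt.

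The levels of 5 of the microtubule genes moved with the GC contrast of the libraries, that of Map1a largely through Wild type replicate 3. Mapt had r = 0.87 over 20 libraries and 0.76 without Wild type replicate 3. The GC values are those of the annotated transcript with the longest coding part. For Mapt (58.8% GC) that record has 2250 bases for 749 codons and thus holds coding sequence only, so the GC of the whole mRNA may differ. Map1a (54.8% GC) had 0.69 over 20 libraries and 0.23 without Wild type replicate 3. On the other side, Stmn2 (46.1% GC) had -0.84 over 20 libraries and -0.52 without Wild type replicate 3, Map2 (47.8% GC) -0.79 over 20 libraries and -0.74 without Wild type replicate 3, and Map1b (47.6% GC) -0.65 over 20 libraries and -0.62 without Wild type replicate 3. Stmn1 (51.1% GC) had 0.40 over 20 libraries and 0.21 without Wild type replicate 3. The neurofilament genes and Dcx followed it less, whatever their GC content. Nefh, with 58.4% GC in a record of 3994 bases for 1090 codons, had -0.23 over 20 libraries and -0.23 without Wild type replicate 3. Nefm (53.4% GC) had 0.41 over 20 libraries and 0.04 without Wild type replicate 3. Nefl (48.8% GC) had 0.21 over 20 libraries and -0.07 without Wild type replicate 3. Dcx, with the least GC of the 10 (40.6%), had -0.22 over 20 libraries and -0.21 without Wild type replicate 3. The median transcript of 14673 tested genes had 50.8% GC.

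Ratios within families were taken on TPM within a library. Map2 over Mapt ran from 1.12 to 1.80 (median 1.32), and both extremes were Wild type, replicate 2 at the low end and replicate 3 at the high end. Its r with the GC contrast was -0.91, and -0.87 without Wild type replicate 3. Map1a over Map1b ran from 0.776 in Wild type replicate 3 to 1.41 in J2 lf/lf replicate 3, and averaged 1.33 ± 0.0714 in J2 lf/lf and 1.13 ± 0.308 in Wild type (SD, n = 3 each). Wild type replicates 1 and 2 alone averaged 1.31 (n = 2). The r of this ratio with the GC contrast was 0.87, and 0.72 without Wild type replicate 3. Stmn1 over Stmn2 ran from 1.56 in Wild type replicate 3 to 2.94 in J2 lf/lf replicate 3, with r of 0.73, and 0.41 without Wild type replicate 3. The subunit proportions of the neurofilament varied less: Nefh over Nefl ran from 0.201 to 0.297 and Nefm over Nefl from 0.419 to 0.555. Wild type replicate 3 had the highest Nefh over Nefl and the lowest Nefm over Nefl. The r with the GC contrast was -0.63 for Nefh over Nefl (-0.38 without that library) and 0.62 for Nefm over Nefl (0.23 without it). Over the 7 groups, permutation tests of the F statistic (100000 permutations, adjusted over 5 ratios) gave an adjusted p of 0.690 for Nefh over Nefl (unadjusted p = 0.491), Nefm over Nefl (0.309), Map1a over Map1b (0.552) and Stmn1 over Stmn2 (0.349). For Map2 over Mapt both the unadjusted and the adjusted p were 0.806.

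**Figure D5:**
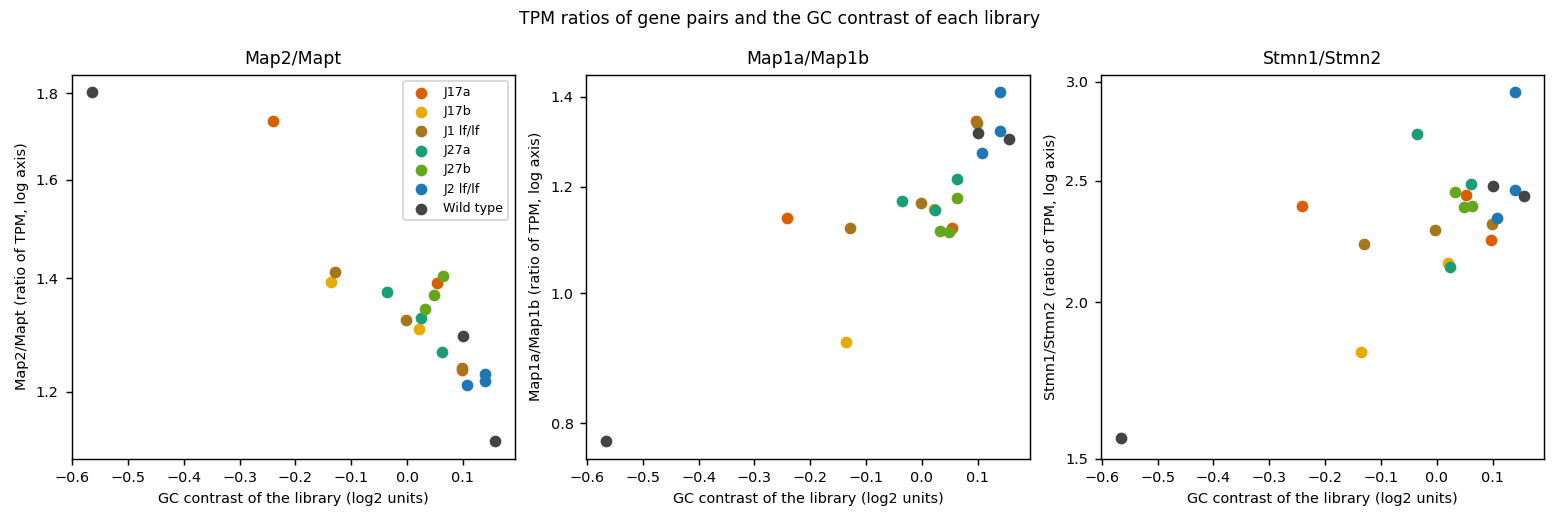
TPM ratios of Map2 to Mapt, Map1a to Map1b and Stmn1 to Stmn2 (y axes, log scale) against the GC contrast of each library (x axis, log2 units), with 1 point per library, coloured by group. Wild type replicate 3, at a GC contrast of -0.57, has the highest Map2/Mapt ratio and the lowest Map1a/Map1b and Stmn1/Stmn2 ratios.

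Among 10637 tested genes with a mean log2 CPM of at least 3, those whose log2 CPM ran most like each gene over the 20 libraries were listed with their r. For Nefh they were Esyt1 (0.95), Nefl (0.84) and Akap12 (0.83), and for Nefl Nefm (0.95), Nefh (0.84) and Esyt1 (0.82), so the neurofilament genes were among each other's nearest. The 2 named for Nefm are Nefl (0.95) and Nacc2 (0.86). Stmn1 ran most like Rab6b (0.94), Syn1 (0.90) and Ctnna2 (0.87), Syn1 being a synaptic vesicle protein and one of the neuronal markers. Stmn2 ran most like Zfp260 (0.92), A230046K03Rik (0.90) and Smc1a (0.89), Map1b like Nf1 (0.90), Enah (0.89) and Ttbk2 (0.89) and Map2 like Ppig (0.92), Sub1 (0.90) and Xpo7 (0.89). Map1a ran most like Bri3bp (0.91), Ncs1 (0.90) and Shisa4 (0.89), and Mapt like Hgs (0.94), Gal3st3 (0.92) and Gnl1 (0.91). The nearest to Dcx were Sft2d2 (0.72), Dph6 (0.72) and Nek4 (0.70), the weakest likeness of the 10. These r were not taken without Wild type replicate 3. Stmn2 and Mapt had r of -0.84 and 0.87 with the GC contrast, which was lowest in that library. The part of base composition in these likenesses was not tested.

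The wider pathway gave the same counts. Of 69 other genes, 19 microtubule-associated proteins and stathmins, 7 intermediate filament proteins, 12 tubulins, 12 axonal transport motors and 19 kinases, scaffolds and phosphatases of these proteins, 0 passed edgeR's threshold in any comparison. At an unadjusted p under 0.05 there were 1 to 5 of 69 per comparison of 2 groups, beside 4.22 to 7.94% of all tested genes, and 4 of 69 in the test over 7 groups, beside 6.71%. The lowest adjusted p of that test were 0.158 for Dpysl2, which encodes the tubulin-binding protein CRMP2, and 0.158 for Nes, which encodes nestin. The next were 0.898 for Tppp and 0.921 for Map7d2 in the first list, and 0.678 for Vim and 0.866 for Prph in the second. The tubulins reached 0.902 (Tuba1c), 0.906 (Tuba1a) and 0.915 (Tubb2b), and the motors 0.817 (Kif5c), 0.882 (Dync1i1) and 0.926 (Kif1b). Among the kinases they were 0.716 for Gsk3b, 0.822 for Mark1 and 0.882 for Cdk5, all of them kinases of tau.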

How the data were processed

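Per the labels, poly(A) RNA of mouse brain was sequenced on a NovaSeq6000 as read pairs of 150 bp. The estimated counts the authors deposited, and the TPM values the authors deposited, were made with cutadapt and RSEM on mm10, per the submitters' processing notes; the sources used here give no versions, annotation or strand use. RSEM shares ambiguous reads between genes, and 4.11% of the estimated counts were not whole.

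Counts were rounded and fitted in R 4.3.3 with edgeR 4.0.16, using filterByExpr (16063 genes left), TMM factors (0.975 to 1.03) and robust quasi-likelihood fits of all 20 libraries with a mean per group (common dispersion 0.0144), 12 comparisons of 2 groups, a test over 7 groups and, added after the data were seen, the difference between the 2 comparisons of 7a with 7b. Tests were two-sided, with Benjamini-Hochberg adjustment over all tested genes and a threshold of 0.05. DESeq2 1.42.0 and limma 3.58.1 served as alternatives, along with the settings in the closing section. CPM use TMM factors; TPM ratios were tested by permutation. The fit was tested on simulated counts. Positions, transcripts and GC content come from GENCODE M21 (GRCm38), with 91.3% of tested genes matched by symbol.

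All 10 genes were named. A log2 fold change is given with its error where the unadjusted p was under 0.05. Pathway genes are the 3 with the lowest adjusted p over 7 groups per list, and the genes most alike the 3 with the highest r, of which 1 for Nefm is not reported here. The genes and lists were chosen with earlier results of these data known. No 2 libraries of a group agreed within sampling noise, so each counted once. Library totals limit precision by counting error only, which for these genes lay below the spread between libraries.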

Additional observations from a re-analysis of the deposited data

How the results depend on the processing

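The count of called genes among the 10 stayed at 0 under 246 of 247 alternatives: DESeq2 size factors, the DESeq2 test, no filter on low counts, limma on log2(TPM + 1) and log2(TPM + 0.1), only the groups of a comparison, the replicate block, and, chosen after seeing the data, Rn45s, 3 libraries with pituitary transcripts or 2 libraries of low GC contrast left out, besides each library left out in turn. The exception was J27b against J2 lf/lf with only those groups, with 1 gene, Map1b. With the replicate block 0 of 10 were called in every comparison; same-numbered libraries did not deviate together (mean r -0.0088 over 57 pairs, beside 0.0045 over 114 pairs of other numbers). Of 358 values of single genes under alternatives, 357 kept their direction and side of the threshold, 1 (Map1b) passed it and 0 reversed; the ratios' adjusted p ran from 0.118 to 0.904 and stayed above the threshold. Counts over all genes moved more. Main and extreme counts were 14 and 231 (DESeq2) or 114 (without Wild type replicate 3) for the 7 groups, 4 and 98 for J17b against Wild type without the 2 libraries of low GC contrast, or 54 without Wild type replicate 3, 0 and 125 for J27a against J27b and 1 and 81 for J27b against J2 lf/lf with only those groups; the cause was not tested. Counting error stayed below the spread between libraries for all 10 genes; for Dcx, the lowest, it was 4.22%.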

Other observations

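The pair of other cytoskeleton genes with the lowest adjusted p were Dpysl2 and Nes. Dpysl2, which encodes a tubulin-binding protein of growing axons, averaged 198 ± 22.8 CPM in J17a and 153 ± 7.83 CPM in J1 lf/lf (SD, n = 3 each), with all J17a libraries above those of J1 lf/lf, beside 11.9% of all tested genes without overlap (log2 fold change 0.37 ± 0.08, adjusted p = 0.108 by edgeR). Nes, an intermediate filament gene of progenitors and vessels, averaged 13.5 ± 0.660 CPM in J17a (n = 3) and 8.43 ± 1.14 CPM in J17b (n = 2), again without overlap, beside 19.8% of all tested genes (log2 fold change 0.68 ± 0.13, adjusted p = 0.159 by edgeR). J17a against J17b minus J27a against J27b came to 0.78 ± 0.17 for Nes (adjusted p = 0.321 by edgeR). None of these passed the threshold, and both genes were singled out after their values were seen.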
